A study of Mus musculus with 3 samples.

Results

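Goblet cell secreted products were followed in follicle-associated epithelium, the epithelial sheet over the lymphoid follicles of the small intestine, in wild type mice and in mice whose intestinal epithelium had been depleted of RBP-J. They are 10 genes, Muc2, Fcgbp, Clca1, Zg16, Tff3, Spink4, Retnlb, Agr2, Ern2 and Guca2a, chosen by symbol as genes whose products goblet cells secrete or need for secretion. Every probe set that carried one of these symbols alone was taken, which gave 14 probe sets, and the 10 genes stand among 18193 genes with such a probe set. The data are 3 Affymetrix arrays of untreated C57BL/6 mice, 1 of wild type RBP-J and 2 of RBP-J depletion (VillinCre-Rbpjflox/flox). Villin-Cre acts in intestinal epithelium, so lymphoid and stromal cells under the sheet keep the gene. The labels number the depleted samples, and they are called depleted array 1 and depleted array 2 here, after those labels. Nothing in the labels says whether these came from separate animals or how many animals each array holds, and their spread could be technical. Each value is a MAS5 intensity in multiples of its array's median. A difference is depleted minus wild type on the log2(value + 0.248) scale, which understates the change of dim genes, and the limma test gives the only wild type array the spread of the depleted ones. Each SE below is drawn almost wholly from genes of like intensity, not from the gene's own 2 depleted arrays.

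Goblet cells are secretory cells that fill granules with mucin and release them to form the mucus layer. In the gut, Notch signals act through RBP-J and hold progenitors in the absorptive lineage, and cells that escape the signal become goblet, Paneth, enteroendocrine or tuft cells. Follicle-associated epithelium is known for holding few goblet cells and for the M cells that pass antigen to the follicle below.

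In depleted array 1 all 10 genes were higher than wild type, with a median log2 difference of 0.69, against -0.003 over the 11885 genes tested. The 9 members with a wild type value of at least 1, which leaves out Retnlb, were all higher in array 1, with a median of 0.62. In depleted array 2, 7 of the 10 were higher, with a median of 0.33 against 0.22 over all genes. Tff3, Agr2, Zg16 and Guca2a had the largest differences in array 2, and Muc2, Retnlb and Ern2 were below wild type there. None of the 10 passed limma at an adjusted p under 0.05, each with an adjusted p of 0.9997. Over all genes tested limma called 0.0841%. Tff3 and Agr2 had an unadjusted p under 0.05, as did 2.27% of all genes tested. Retnlb, which reached the intensity filter on 1 array alone, is left out of that count of 2 among the other 9 members. In RNA of a whole epithelial sheet, more goblet cells and more RNA per goblet cell could not be told apart for any gene that is higher.

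The share of genes higher than wild type differed between the arrays and gives the ground for these counts. Of all genes tested 49.8% were higher in depleted array 1, 69.7% in depleted array 2 and 39.0% in both. Among the members 7 of the 10 were higher in both. The 39.0% is over genes of all intensities and is not a like ground for bright members. Bright genes were more often higher in each array, as the brightness shares below show, and their share in both was not counted. Array 2's 7 of 10 is close to its 69.7%, which is likewise over genes of all intensities. Of the 8 members with a mean of at least 50, 7 were higher in array 2, against 96.6% of all genes that bright. At least 2-fold higher were Tff3 and Ern2 in array 1 (background 3.19%), and 0 members in depleted array 2 (background 3.57%). Retnlb was also 2-fold higher in array 1, but it passed the intensity filter through that array alone and is not counted against the background. None of the 10 was 2-fold higher in both arrays (background 0.841%) or 2-fold lower in both (background 0.488%). With a pseudocount of 5 only Tff3 was 2-fold higher in array 1, where the background was 0.177%.

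Brightness bears on these counts, since 8 of the 10 genes had a mean intensity of at least 50. Among the 523 tested genes that bright, 69.8% were higher in depleted array 1 and 96.6% in depleted array 2, with median log2 differences of 0.09 and 0.37. The 18 hybridization control probe sets, which measure bacterial and phage transcripts added at the bench, had medians of 0.08 and 0.35 and ranges of -0.09 to 0.25 and of 0.06 to 0.55. The 8 bright members had medians of 0.60 and 0.45. In array 1 all 8 lay above the highest control. In depleted array 2 only Tff3, Agr2, Zg16 and Guca2a did, and Guca2a and Zg16 did so by little.

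**Figure D1:**
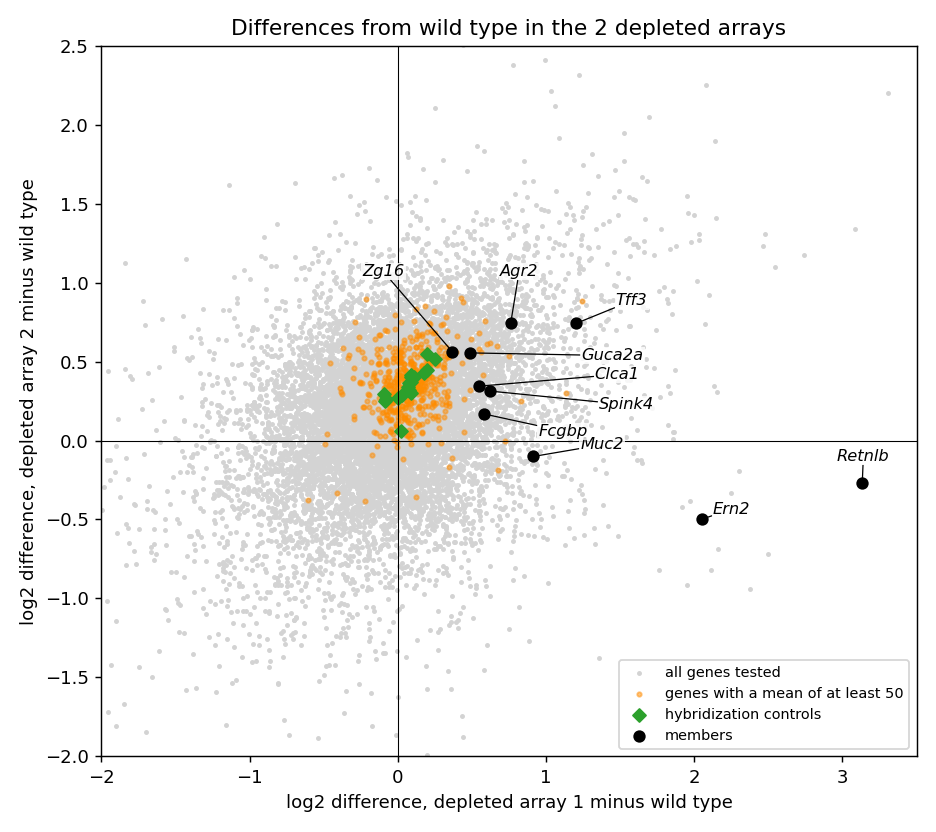
Log2 difference from wild type in depleted array 1 (horizontal axis) against depleted array 2 (vertical axis), for 11885 tested genes (grey, 36 of them outside the axes), those with a mean of at least 50 (orange), 18 hybridization controls (green) and the 10 members (black). Members lie to the right of zero, while their heights run from -0.50 for Ern2 to 0.74 for Tff3 and Agr2, and both axes share the wild type array.

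Other facts of the arrays bear on every value below. Rbpj had 3 probe sets. The brightest read 7.15 in wild type, 2.72 in depleted array 1 and 5.74 in depleted array 2, the next 5.37, 4.14 and 4.92, and the dimmest 3.79, 2.30 and 4.21. Depleted array 1 was thus the lowest in each, and depleted array 2 was above wild type in the dimmest. The sources used here do not place these probe sets inside or outside the deleted part. Xist read 0.297 in wild type against 42.8 and 43.4 after depletion, and the Y-linked Kdm5d read 8.03 against 0.023 and 0.018, so sex-linked genes and genotype split the arrays alike and cannot be told apart. The ratio of 3' to 5' Gapdh control probe sets was 1.83 in wild type, 2.28 in depleted array 1 and 1.54 in depleted array 2.

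Muc2 encodes the gel-forming mucin that makes up most of intestinal mucus. Its single probe set (1428435_at) read 67.2 in wild type, 127 in depleted array 1 and 62.6 in depleted array 2. The wild type value lay close to depleted array 2, and depleted array 1 stood apart. The log2 differences were 0.91 and -0.10, with a mean of 0.41 (SE 0.38), and the depleted arrays differed from each other by 1.02. In array 1, 3.98% of all tested genes had a larger difference than Muc2, and in depleted array 2 76.6% had.

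Fcgbp, a large protein of cysteine-rich repeats bound to the mucin network, read 85.3 in wild type, 128 in depleted array 1 and 95.9 in depleted array 2. Its log2 differences were 0.58 and 0.17, the latter under the median of array 2 over all genes. Clca1, a metalloprotease secreted with mucus and once named gob-5, read 86.9, 127 and 110.4 in the same order by its brighter probe set (1416306_at). A dimmer one (1459889_at) read 2.36, 8.68 and 3.93. Both probe sets placed wild type lowest and depleted array 1 highest, with log2 differences of 0.55 and 0.34 and of 1.77 and 0.68.

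Zg16, a lectin-like protein that binds Gram-positive bacteria in mucus, had 3 probe sets, and the depleted arrays were above wild type in each. The brightest (1428359_s_at) read 135 in wild type against 174 and 199 after depletion. The next (1434137_x_at) read 127, 152 and 171, and the last (1428358_at) 111, 142 and 145. Log2 differences ran from 0.26 to 0.37 in array 1 and from 0.38 to 0.56 in depleted array 2. Its highest values were in depleted array 2 with the deposited values, by 0.19 for the brightest probe set. Under the 3 other scalings described with the scaling results the order turned, and array 1 was higher by 0.034 to 0.11. Probe sets marked s or x by the maker can share probes with other transcripts, and the 1428358_at set carries no such mark.

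Tff3, the trefoil peptide that goblet cells add to mucus, had the largest difference of the bright members in depleted array 1 and by the mean. In depleted array 2 Agr2 was slightly larger, at 0.7438 against 0.742. Tff3 read 52.8 in wild type, 122 in depleted array 1 and 88.4 in depleted array 2, a depleted mean of 105 ± 23.6 (SD, n = 2). Both depleted arrays were above wild type, by log2 differences of 1.20 and 0.74 (mean 0.97, SE 0.38, limma unadjusted p = 0.00987, adjusted p = 0.9997). In array 1, 1.89% of tested genes had a larger difference, and in depleted array 2 9.46%.

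Spink4, a Kazal-type protease inhibitor peptide of goblet granules, read 100.2 in wild type, 155 in depleted array 1 and 125 in depleted array 2. Its log2 differences were 0.62 and 0.31, the latter within the range of the hybridization controls. Retnlb encodes RELM-beta, a resistin-like peptide that acts on bacteria and that goblet cells make on bacterial colonization or worm infection. It read 0.078 in wild type, 2.61 in depleted array 1 and 0.023 in depleted array 2. It was thus above the array median in depleted array 1 and nearly dark in the others.

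Retnlb entered the test through that 1 array alone, since its other values lie under the intensity filter of 0.598. Its log2 difference of 3.13 in array 1 depended on the pseudocount and was 1.75 with a pseudocount of 1 and 0.58 with 5. The mean difference was 1.43, with the depleted arrays 3.40 apart, and no p is given for it.

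Agr2, a disulfide isomerase family protein of the endoplasmic reticulum needed for Muc2 production, had nearly equal values in the depleted arrays by its brighter probe set, as deposited. Its brighter probe set (1419268_at) read 55.8 in wild type, 94.8 in depleted array 1 and 93.6 in depleted array 2, a depleted mean of 94.2 ± 0.826 (SD, n = 2). The other (1455802_x_at) read 55.1, 94.9 and 74.7. Both placed wild type below both depleted arrays. Log2 differences of the brighter set were 0.76 and 0.74 (mean 0.75, SE 0.38, limma unadjusted p = 0.0466, adjusted p = 0.9997).

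Ern2 encodes IRE1-beta, the stress sensor of the endoplasmic reticulum found in mucus-secreting epithelia. It read 1.13 in wild type, 5.46 in depleted array 1 and 0.726 in depleted array 2. As for Retnlb and Muc2, wild type and depleted array 2 lay together and depleted array 1 apart. The log2 differences were 2.05 and -0.50, and 1.60 and -0.30 with a pseudocount of 1, and 0.77 and -0.098 with 5. Only 0.202% of tested genes had a larger difference in array 1. The mean of 0.78 had an SE of 0.55, borrowed from genes of like intensity, while the depleted arrays lay 2.55 apart.

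Guca2a encodes guanylin, a peptide made by goblet cells, among others, that stimulates chloride and bicarbonate secretion through guanylate cyclase C. It read 93.0 in wild type against 130.2 and 137 after depletion, a depleted mean of 134 ± 4.66 (SD, n = 2). As deposited, the depleted arrays lay close together and above wild type, with log2 differences of 0.48 and 0.56 (mean 0.52, SE 0.36, limma adjusted p = 0.9997).

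**Figure D2:**
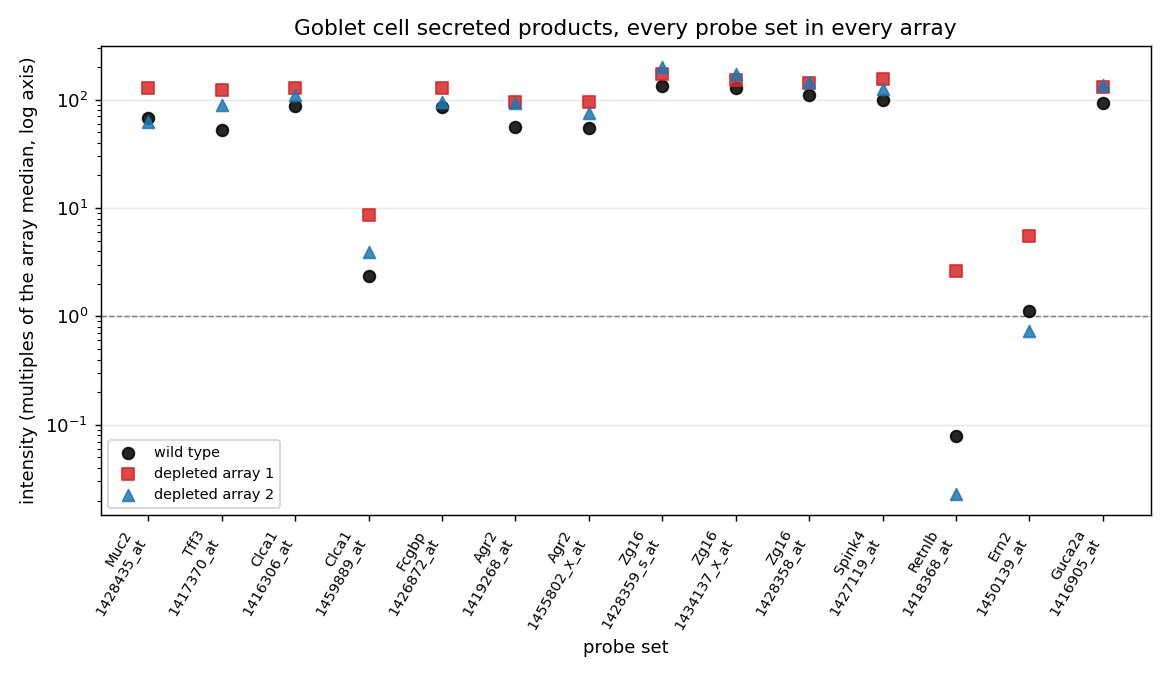
Intensity in multiples of the array median (log axis) for each of the 14 member probe sets in wild type (black circles), depleted array 1 (red squares) and depleted array 2 (blue triangles); 1 point is 1 array and the dashed line is the array median. All 14 were higher than wild type in depleted array 1 and 11 in depleted array 2, where those of Muc2, Retnlb and Ern2 were lower.

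With the deposited values the 10 genes can be ordered by how far apart the depleted arrays were, array 1 minus array 2. Agr2 and Guca2a differed between them by 0.02 and -0.07, Zg16 by -0.19 and Clca1 by 0.20. Spink4, Fcgbp and Tff3 differed by 0.31, 0.42 and 0.46, Muc2 by 1.02, Ern2 by 2.55 and Retnlb by 3.40. The median distance, without sign, was 0.36 over the members and 0.38 over all genes tested. The other 3 scalings kept Muc2, Ern2 and Retnlb at the far end, at 1.26 or more. They changed the near end, where Zg16 came closest at 0.034 to 0.11, Guca2a turned sign to between 0.17 and 0.23, and Agr2 lay between 0.26 and 0.33.

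Promoters are shown for Muc2, which was above wild type in array 1 and below it in array 2 under all 4 scalings, and for Agr2 and Guca2a, which were above wild type in both depleted arrays under all 4 scalings. RefSeq windows (GRCm38.p6) of 250 bases before to 50 after the transcription start matched 4 of the 10 members, these and Fcgbp. The 250 bases before the start follow, 5′ to 3′, all on the plus strand, at chr7:141690090-141690339 for Muc2, chr12:35992675-35992924 for Agr2 and chr4:119637482-119637731 for Guca2a. Capitals mark matches, on either strand, to the motifs spelled out after them.
Muc2: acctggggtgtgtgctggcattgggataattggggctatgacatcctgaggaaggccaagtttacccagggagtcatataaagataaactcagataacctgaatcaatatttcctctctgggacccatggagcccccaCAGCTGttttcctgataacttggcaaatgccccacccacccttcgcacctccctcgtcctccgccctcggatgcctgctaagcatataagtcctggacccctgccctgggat
Agr2: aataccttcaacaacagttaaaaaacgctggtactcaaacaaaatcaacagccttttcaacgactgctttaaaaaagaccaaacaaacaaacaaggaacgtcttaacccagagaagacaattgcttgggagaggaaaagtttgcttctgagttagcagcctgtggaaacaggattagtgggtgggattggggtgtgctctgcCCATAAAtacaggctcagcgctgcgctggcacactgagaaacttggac
Guca2a: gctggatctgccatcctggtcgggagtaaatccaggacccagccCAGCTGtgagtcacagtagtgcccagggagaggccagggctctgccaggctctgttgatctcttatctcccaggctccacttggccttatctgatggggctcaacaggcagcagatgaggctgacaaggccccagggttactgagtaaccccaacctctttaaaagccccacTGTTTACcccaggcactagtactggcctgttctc

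CAGCTG, a hexamer of the E-box kind that Atoh1 and related factors bind, was in the windows of Muc2, Fcgbp and Guca2a, its first base at -112, -208 and -206 from the start. It reads the same on both strands and was in 16.3% of all 32851 windows. TGTTTAC, of the FOXA factors, was in that of Guca2a at -34 and in 3.65% of all windows. TTTATNG, of CDX2, was in that of Agr2 at -48, on the minus strand, and in 10.9%. TGGGAA, the core bound by RBP-J, was in the window of Agr2 34 bases after the start, outside the part printed, and in 25.6% of all windows. No matches overlapped. Muc2 and Guca2a, whose differences in array 2 were -0.10 and 0.56, thus share CAGCTG. A match is one of letters only, not a shown binding site.

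Relatives of the members had differences near those of all genes in both arrays. Of 14 tested relatives, 8 were higher in depleted array 1 (background 49.8%) and 9 in depleted array 2 (background 69.7%). Their median log2 differences were 0.03 and 0.22, and 0 were called by limma (0 at an unadjusted p under 0.05). The membrane mucin Muc13 read 129.6 in wild type against 144 and 146 after depletion by its brightest probe set, and 86.9 against 86.4 and 78.4 by the other. Muc3, another membrane mucin, read 50.2, 57.0 and 67.2. Muc4 read 20.0 against 15.7 and 15.3 and Muc20 3.21 against 1.82 and 1.58, lower in both, while the next brightest probe set gave 0.20 and 0.47 on the log2 scale for Muc4 and 0.19 and 0.31 for Muc20.

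Genes that lie beside a member on the chromosome in RefSeq (GRCm38.p6) can be set beside it. Clca4a and Clca4b, neighbours of Clca1, had log2 differences of 0.15 in array 1 and 0.37 in array 2, and of -0.03 and 0.29, and Clca3b had -0.05 and 0.28. These neighbours are thus near the bright-gene medians in both arrays, where Clca1 was above them in depleted array 1. Guca2b, which encodes uroguanylin and neighbours Guca2a, read 88.0 in wild type, 95.9 in depleted array 1 and 133 in depleted array 2, with differences of 0.12 and 0.59. In array 2 the guanylin pair had like differences, and in depleted array 1 Guca2a had the larger. Muc5ac and Muc5b, the neighbours of Muc2 and mucins of other epithelia, read at most 0.123 on any array and were not tested. Tff2 and Agr3, beside Tff3 and Agr2, read at most 0.322 and 0.879.

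The pathway that guanylin acts on gave no call. Of its 8 tested genes 3 were higher in depleted array 1 (background 49.8%) and 5 in depleted array 2 (background 69.7%). The medians were -0.06 and 0.21, and 0 had an unadjusted p under 0.05. The receptor Gucy2c read 7.82 in wild type against 7.44 and 6.69 after depletion, the sodium-proton exchanger Slc9a3 14.6 against 11.2 and 9.62, the kinase Prkg2 34.7 against 28.4 and 29.9, and the chloride channel Cftr 30.6 against 33.6 and 35.9. A dimmer Cftr probe set gave -0.94 and 0.11. Il4 and Il13, the cytokines that expand goblet cells in worm infection, read at most 0.361 on any array by their brightest probe sets. Of the 7 tested genes of that pathway 4 were higher in array 1 and 6 in depleted array 2, against the same backgrounds. Il13ra1, a receptor chain, read 41.6 against 66.4 and 63.1, and Il33, an alarmin upstream of these cytokines, 6.19 against 2.17 and 3.99. None was called, and 1 had an unadjusted p under 0.05.

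Other goblet cell genes were also higher in depleted array 1 more often than in depleted array 2. Of 33 tested, 28 were higher in array 1 (background 49.8%) and 24 in depleted array 2 (background 69.7%). The count in array 2 is near its background. The median log2 differences were 0.75 and 0.30. In array 1, 13 were at least 2-fold higher (background 3.19%) and in depleted array 2 0 (background 3.57%). With a pseudocount of 5 the count in array 1 was 2 (background 0.177%). Limma called 0, and 4 had an unadjusted p under 0.05 (background 2.27%). The mucin-type glycosyltransferase Galnt12 read 4.39 in wild type against 9.06 and 7.82 after depletion, and Galnt5, of the same family, 0.826 against 2.83 and 1.79. The secreted phospholipase Pla2g10 read 0.862 against 3.66 and 1.82, and the receptor activity protein Ramp1 0.732 against 2.90 and 1.49. By their brightest probe sets these 4 were above wild type in both arrays, and the wild type values of Galnt5, Pla2g10 and Ramp1 lie under the array median, where the pseudocount shortens the difference. Dimmer Ramp1 probe sets gave -0.07 and 0.28, and 1.18 and -0.14. These 4 were named because they rank first by the smaller difference. Of the 33 genes 21 were higher in both arrays (background 39.0%) and 2 lower in both.

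Markers of other secretory cells were mostly higher in depleted array 1 too. Over all genes tested 49.8% were higher in array 1 and 69.7% in array 2, the background for each count here. Of the 16 genes on the Paneth cell list only 8 had a probe set of a single symbol, and all 8 were tested. Among these, 7 were higher in each array, with medians of 0.98 and 0.32. Their summed intensity was 286.5 in wild type, 488 in depleted array 1 and 346 in depleted array 2. Mmp7, a protease of Paneth cells, read 20.8, 50.8 and 27.4, and Pla2g2a read 1.601, 2.78 and 2.998. Defa3, the only defensin tested, was the 1 marker lower in both arrays, at 1.131 in wild type, 0.505 in depleted array 1 and 0.78 in depleted array 2. Some genes of that list, such as Ang4 and Itln1, are also made by goblet cells. Enteroendocrine markers had medians of 0.34 and -0.02 (14 and 8 of 16 higher) and tuft markers 0.70 and 0.09 (6 and 5 of 8 higher). Absorptive enterocyte markers had medians of 0.17 and 0.30, with 12 and 13 of 14 higher, and Alpi, the alkaline phosphatase of the brush border, read 80.1 against 122 and 122. No gene of these lists was called.

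Markers of B cells, which lie under the epithelium, were mostly lower in depleted array 1. The background share of genes higher is again 49.8% in array 1 and 69.7% in array 2. Of 13 tested B cell markers 1 was higher in depleted array 1 and 6 in depleted array 2, with medians of -0.90 and -0.05, and their summed intensity was 67.0 in wild type, 34.8 in depleted array 1 and 81.5 in depleted array 2. None was at 0, and the list holds Spn, which T cells also make. Ms4a1, which encodes the B cell antigen CD20, stood at 11.1 against 4.12 and 6.73. Of 12 M cell markers 8 were higher in array 1 and 11 in array 2, with medians of 0.16 and 0.51. Tnfrsf11b, Marcksl1, Pglyrp1 and Ccl9 ranked first there by the smaller difference, all higher in both arrays. Gp2 read 19.8, 9.90 and 32.6 and Spib 38.9, 33.8 and 67.6, lower in array 1, unlike most of the list. Both were picked after their values were seen, as defining genes of M cells. The members' sum was 677 in wild type, 1065 in depleted array 1 and 912 in depleted array 2. In the same order the absorptive enterocyte list summed to 1282, 1457 and 1644. The hybridization controls had median log2 differences of 0.08 and 0.35, and no sum of any list was corrected for the scaling of the arrays. The part of B cell content in the members' values was not tested.

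**Figure D3:**
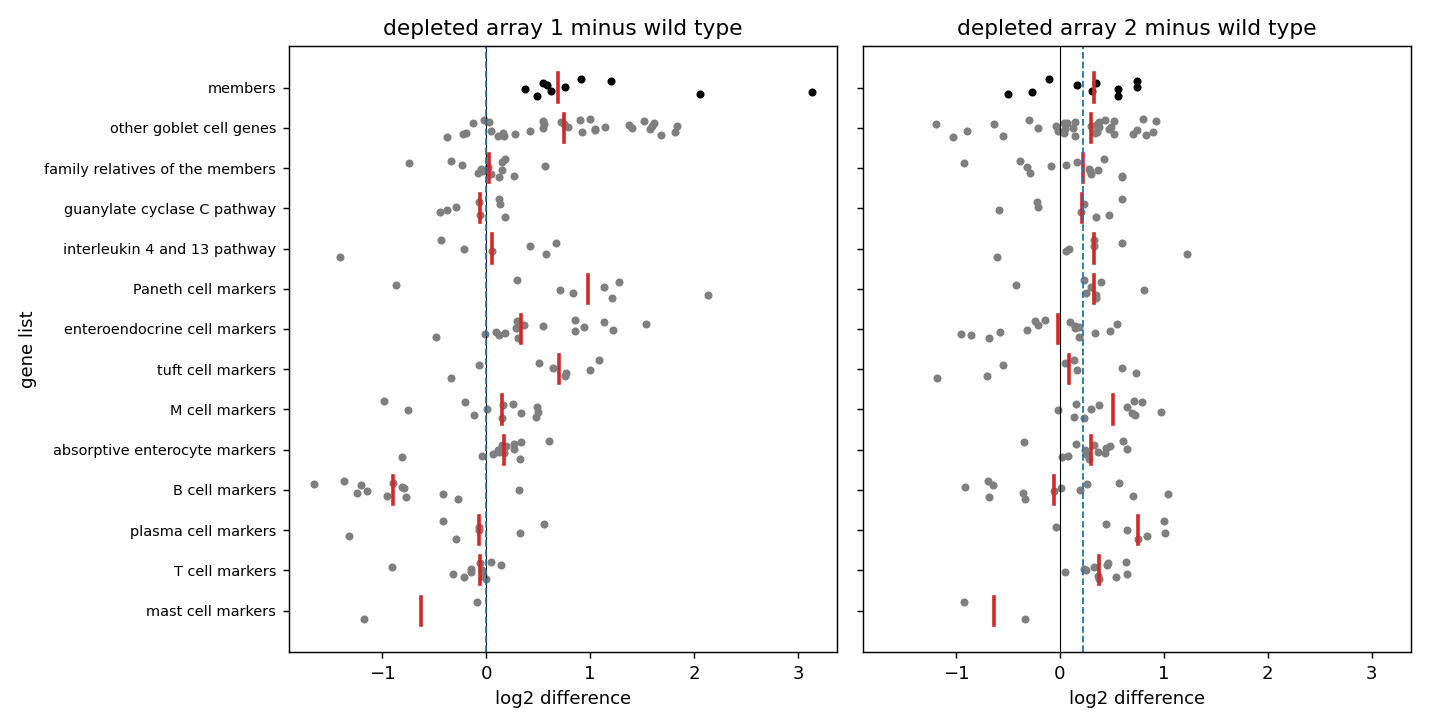
Log2 difference from wild type of each tested gene, by list (rows), in depleted array 1 (left) and depleted array 2 (right); 1 point is 1 gene, red bars are list medians and the dashed blue line is the median over all 11885 genes tested. On the left panel the members, other goblet genes, Paneth markers and tuft markers have medians of 0.69, 0.75, 0.98 and 0.70, with some genes of the latter 3 lists below zero, and B cell markers have a median of -0.90.

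Remaining lists had no called gene either. T cell markers had medians of -0.06 and 0.38 over 11 genes and plasma cell markers -0.07 and 0.75 over 7. Mast cell markers had 2 tested genes of 9, lower in both depleted arrays. By the pair of differences over the 3 arrays, the genes nearest to the members' median pair among 5863 others with a mean of at least 5 were Mospd3, Sap30l, Lamtor5, D630039A03Rik and Arfgap3, at distances from 0.0078 to 0.0396. Mospd3 read 3.99 in wild type against 6.57 and 5.08 after depletion. None of the 5 stands on the goblet cell list.

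Scaling moved the differences of array 1 little and those of array 2 more. In depleted array 1 all 10 members were above wild type under 4 scalings, with medians between 0.59 and 0.74. Retnlb, which passed the intensity filter through that array alone, is among the 10 and in these medians. The scalings were the deposited values, quantile normalization, equal 75th percentiles and scaling to the hybridization controls. In depleted array 2 the number above wild type was 7, 4, 6 and 6 in that order, and the medians were 0.33, -0.066, 0.14 and 0.068. Tff3, Agr2, Zg16 and Guca2a were above wild type in both arrays under all 4 scalings, with differences in array 2 of 0.35, 0.34, 0.21 and 0.17 under quantile normalization. Fcgbp was below wild type in array 2 under the 3 other scalings, and Clca1 and Spink4 were with quantile normalization, at -0.05 and -0.09. Muc2, Retnlb and Ern2 stayed below wild type in array 2 under all 4, with Muc2 between -0.48 and -0.10.

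**Figure D4:**
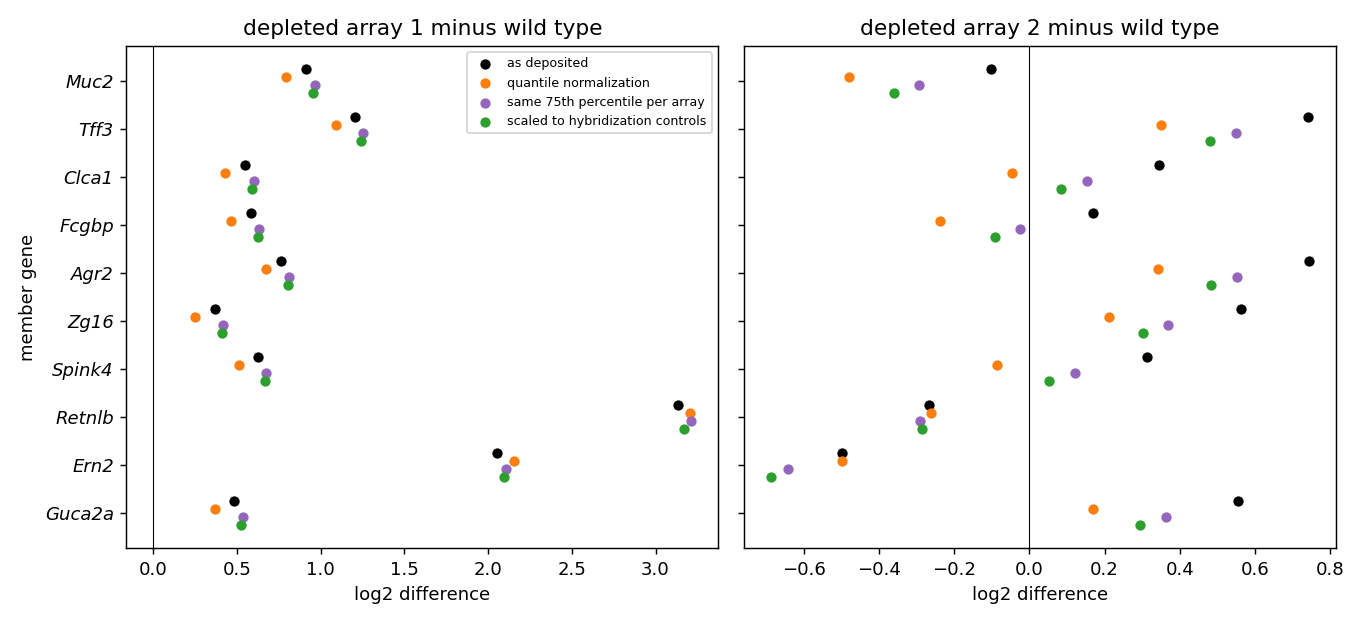
Log2 difference from wild type of each member gene (rows) in depleted array 1 (left) and depleted array 2 (right; the horizontal scales differ) under 4 scalings of the arrays, shown by colour. In array 1 every point lies above zero, and in depleted array 2 those of Tff3, Agr2, Zg16 and Guca2a do, with the points of Muc2 between -0.48 and -0.10.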

How the data were processed

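The deposited table holds 1 linear intensity per probe set and array, which the authors made with MAS5 according to the labels (per the submitters' processing notes). Each array has a median of 1, and values are multiples of it. Detection calls and scanner files were not used here. Of 45037 probe sets that are not controls, 34945 had 1 gene symbol in the platform annotation and 932 several, and 9160 were not listed. All member probe sets are given, and for tests over all genes the probe set with the highest mean stood for its gene. Genes with a mean of at least 0.598 (the 40th percentile) were tested, 11885 in all. Values were taken as log2(value + 0.248), the pseudocount being the 25th percentile, and fitted in R 4.3.3 with limma 3.58.1 (lmFit, eBayes with an intensity trend) over all 3 arrays, with Benjamini-Hochberg adjustment over all genes tested. The script was tested on simulated data. Only the 2 depleted arrays inform the spread, so a p-value here says nothing of how animals vary. The eBayes prior had 600.5 degrees of freedom, so each SE is close to that of genes of like intensity. Agr2 and Muc2 both had an SE of 0.38, though the SDs of their 2 differences were 0.0127 and 0.718. Arrays have no read depth; their number limits the precision. Members and lists were chosen with earlier results of these data known. Genes named from other lists are up to 4 each, ranked by the smaller of their 2 differences where these share a direction, the members' neighbours and defining genes. Alternatives were the pseudocount, the filter, the scaling, the mean of probe sets, the trend, all probe sets apart and each depleted array left out. Promoter windows were those of RefSeq; the planned comparison of protein sequences was not made here.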

Additional observations from a re-analysis of the deposited data

How the results depend on the processing

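The count of members called by limma was 0 under all 10 alternatives, with the lowest limma unadjusted p at 0.00126 (adjusted p = 0.738) after scaling to the same 75th percentile. Under that scaling 5 members had an unadjusted p under 0.05, as did 2.68% of all genes tested. Without an intensity trend none of the 9 members other than Retnlb had an unadjusted p under 0.05 (background 2.91%). No test was possible with 1 depleted array left out, since no residual degrees of freedom remain. The count of members 2-fold from wild type in both arrays was 0, and ran from 0 without depleted array 1 to 3 without depleted array 2. Retnlb, which passed the filter through depleted array 1 alone, is among these 3. The members' median in depleted array 2 moved from 0.33 to -0.066 with quantile normalization and to 0.068 with scaling to the hybridization controls, an alternative chosen after the data were seen. The 3 members that turned direction did so without depleted array 1: Muc2 ran from -0.10 to 0.91, Ern2 from -0.50 to 2.05 and Retnlb from -0.27 to 3.13. No other alternative turned the mean difference of a member. The median over the 9 members with a wild type value of at least 1 stayed within the spread between the arrays. Retnlb was not tested with the filter at the 60th percentile. No paired analysis was possible because the labels number the depleted samples only, and wild type is 1 array.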
